A study of Taxus mairei and Taxus cuspidata and Taxus x media with 9 samples.

Results

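*T. media* and *T. mairei* were compared by KEGG ortholog, a group of genes that share one numbered function (a K number) across species. All 6 libraries of these species were used, of 9 in the series. The members were 2095 orthologs, formed from the 8425 of 33895 unigenes that carry a K number, and 2091 of them passed a filter on low values. Both groups were twigs, with wood and needles together, of 3-year-old trees kept in one growth chamber regime. *T. mairei* is a yew of southern China, and *T. media* is a garden hybrid of *T. cuspidata* and another yew. There were 3 libraries per species, and the study's methods give no link between its trees and the libraries.

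Yews are conifers known for taxol, a diterpenoid of the bark and needles that is used against cancer. Its carbon skeleton comes from isoprene units made in the plastid by the MEP pathway, and the same units feed gibberellins, carotenoids, tocopherol and the tail of chlorophyll. The unigenes came from one assembly of the reads of all species, so the copies of a single gene in different species can stand as separate unigenes. A unigene then appears present in one species and absent from the other, whereas the sum over an ortholog holds both copies. The ortholog level therefore asks whether the species differ in the total RNA for a function, and not in which copy carries it. The values are TPM (reads per length, scaled to one total per library), summed per ortholog. Each library was then rescaled by its median ratio, so that the typical ortholog stood level in the 6 libraries.

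The libraries held 32783233 to 43480998 counted reads, with no count for *T. mairei* replicate 3. K-numbered unigenes took 36.63 to 38.98% of the TPM in *T. media* against 29.35 to 30.57% in *T. mairei*. The rescaling factors were 1.212 to 1.266 in *T. media* against 0.778 to 0.830 in *T. mairei*. On the log2 scale the libraries of one species correlated at 0.983 to 0.993, and those of different species at 0.860 to 0.896. Light-harvesting proteins, the marker of needle, were present in every library. The cellulose synthase ortholog K10999 and the monolignol enzymes, markers of wood, were also present. No unigene carries the K number of laccase, chitin synthase, collagen or muscle myosin. In bulk twigs, fewer cells of a type and less RNA per cell cannot be told apart.

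Between the species, 608 orthologs were called, that is 29.1% of those tested, at a log2 fold change beyond 1 and a limma adjusted p below 0.05. Of these, 277 (13.2%) were higher in *T. media* against 331 (15.8%) in *T. mairei*. The libraries of the species did not overlap for 601 of the 608, against 1503 (71.9%) of all orthologs tested. The median absolute log2 fold change was 0.59, and 16 orthologs in *T. media* against 18 in *T. mairei* were higher by at least 3 log2 units. The balance of the directions rested on the rescaling. The calls that were higher in *T. media* made up 45.6% here, 80.0% with TPM as deposited (605 against 151) and 73.5% with upper-quartile scaling (512 against 185). These scalings placed the median ortholog at 0.60 and 0.47, so each change below is relative to the typical ortholog.

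**Figure D1:**
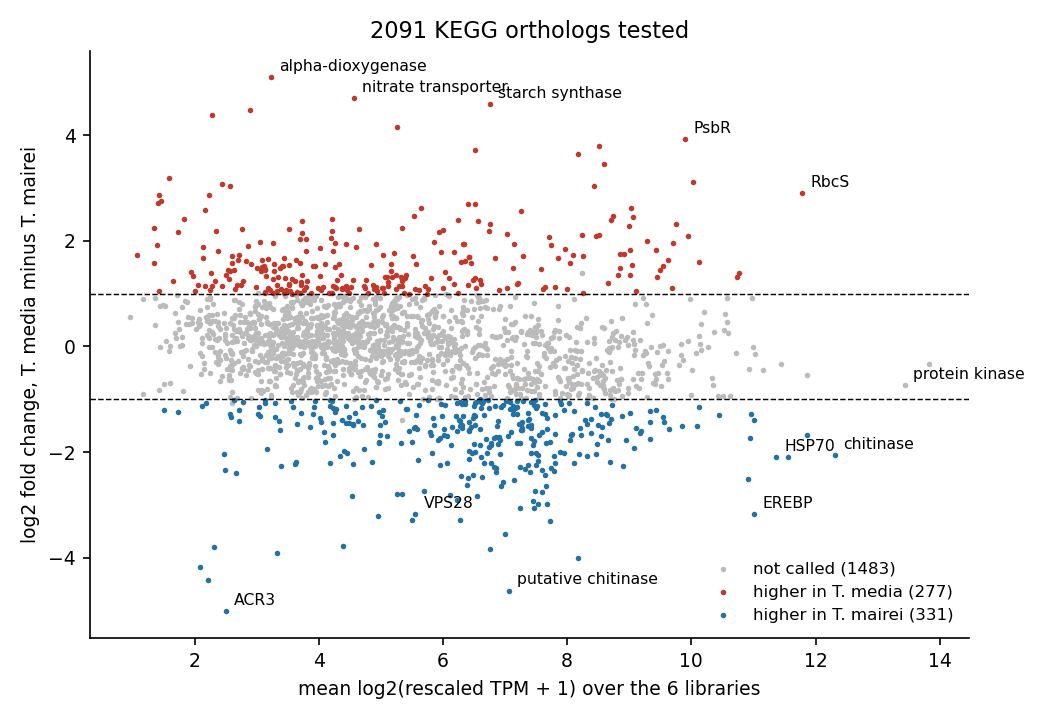
Log2 fold change of 2091 orthologs (vertical, T. media minus T. mairei) against their mean log2(rescaled TPM + 1) over 6 libraries (horizontal). Each point is 1 ortholog, red for the 277 higher in T. media, blue for the 331 higher in T. mairei, and the dashed lines mark a log2 fold change of 1 in each direction. The abundant EREBP, HSP70 and chitinase orthologs lie on the T. mairei side, and RbcS and PsbR on the T. media side.

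Photosynthesis genes of the nucleus formed the clearest block on the *T. media* side. These genes encode the small subunits of the photosystems, the antenna that binds chlorophyll, and the enzymes that fix carbon. Of 21 nuclear-encoded photosystem orthologs, 16 were higher in *T. media* against 0 in *T. mairei*, with a median log2 fold change of 1.99. The light-harvesting list had 8 of 11 higher in *T. media* (median 1.32), and the Calvin cycle list 6 of 11 (median 1.46). Over all orthologs 13.2% were higher in *T. media* and 15.8% in *T. mairei*, and the median was 0.02.

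PsbR (K03541), a subunit of photosystem II, held 2465, 5158 and 4022 TPM in the *T. media* libraries and 246, 156 and 378 in *T. mairei*. No library overlapped, and the log2 fold change was 3.92 ± 0.37 (SE, n = 3 and 3; limma adjusted p = 1.12e-04). PsaL (K02699), a photosystem I subunit, held 1024, 1707 and 1441 TPM in *T. media* against 98.7, 73.5 and 127 in *T. mairei*, at a log2 fold change of 3.79 ± 0.25 (limma adjusted p = 2.63e-05). In both genes *T. media* replicate 1 was the lowest of its species and *T. mairei* replicate 2 the lowest of the other. PsbW (K02721), of photosystem II, changed by 3.45, and PsbS (K03542), which sheds excess light as heat, by 2.70 log2 units toward *T. media*.

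The antenna showed a gradient among its members. LHCA3 (K08909), which binds chlorophyll at photosystem I, held 593, 1379 and 1289 TPM in *T. media* against 80.8, 53.9 and 118 in *T. mairei*, at a log2 fold change of 3.65 ± 0.39 (limma adjusted p = 1.90e-04). LHCB6 (K08917), a minor antenna protein of photosystem II, changed by 3.12 and LHCA1 (K08907) by 2.62. LHCB1 (K08912), the main antenna protein, held 1586, 3602 and 3373 TPM in *T. media* against 1068, 748 and 1563 in *T. mairei*. These ranges nearly met, at 1.32 ± 0.38 log2 units (limma adjusted p = 0.0175), and the call was lost without any one of 4 of the libraries. Leaving out single libraries left 5 to 9 of the 11 antenna orthologs higher in *T. media*. The count was 5 without replicate 2 or 3 of *T. media* or replicate 1 or 2 of *T. mairei*.

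RbcS (K01602), the small subunit of the carbon-fixing enzyme Rubisco, held 7976, 11509 and 9765 TPM in *T. media* against 1255, 929.8 and 1849.9 in *T. mairei*. The difference was, on the log2 scale, 2.90 ± 0.26 (limma adjusted p = 9.14e-05), and 99.3% of its TPM lay on a single unigene in each species. SBPase (K01100) and PRK (K00855), which regenerate the acceptor of CO2, changed by 2.07 and 1.73. Pyruvate,orthophosphate dikinase (K01006), which makes the CO2 acceptor of C4 plants, stood at 9.84, 23.7 and 17.2 TPM against 1.06, 0.560 and 1.76.

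**Figure D2:**
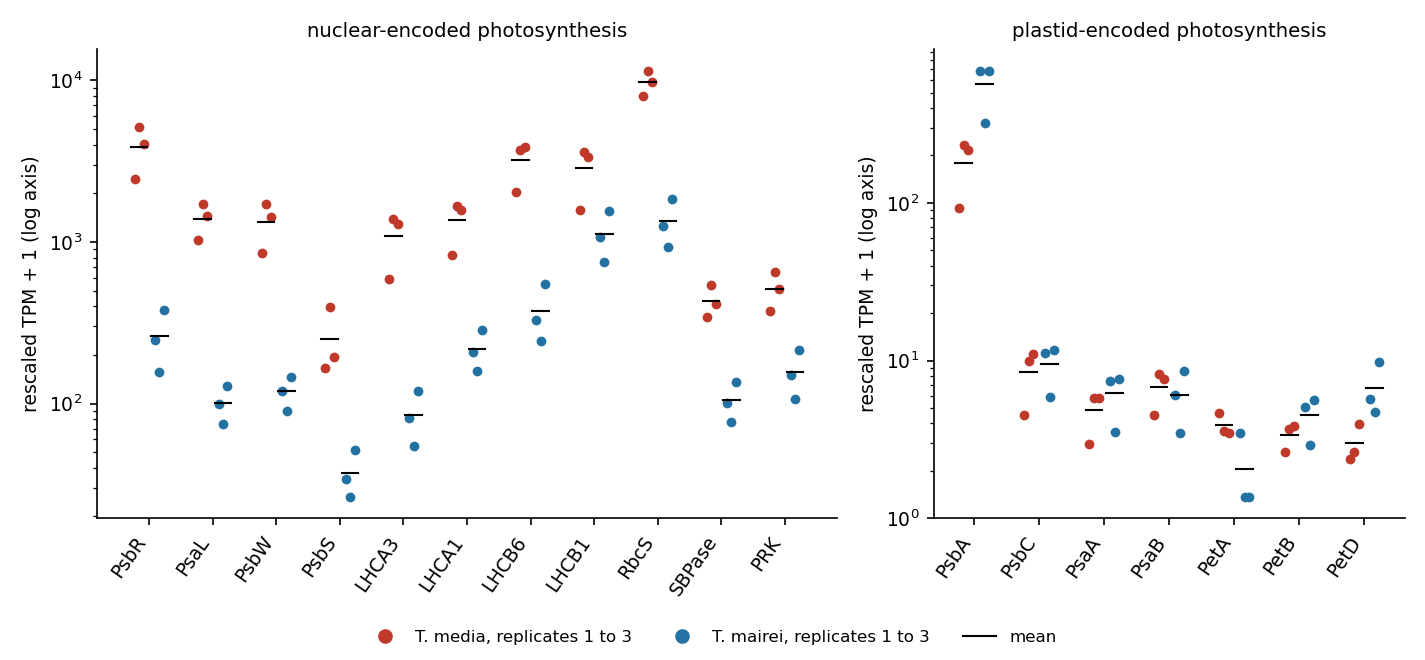
Rescaled TPM + 1 on a log axis for 11 nuclear-encoded (left) and 7 plastid-encoded (right) photosynthesis orthologs. Dots are single libraries, red for T. media and blue for T. mairei, and black bars are means. The nuclear genes stand apart except LHCB1, whose ranges nearly meet, while 4 of the 7 plastid genes overlap.

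The plastid-encoded members of the same complexes did not move with them. Of 7, 1 was higher in *T. media* against 2 in *T. mairei*, and 4 were not called. The *T. media* call, PetA (K02634), had means of 2.91 against 1.07 TPM and was kept in 7 of the 15 alternatives that tested it. PetD (K02637), called higher in *T. mairei*, was kept in 12 of 16. PsbA (K02703), the reaction-center protein of photosystem II, held 92.1, 230.4 and 214 TPM in *T. media* against 688, 318 and 688 in *T. mairei*. The difference was, on the log2 scale, -1.68 ± 0.43 (limma adjusted p = 0.0108), and the edgeR test on counts gave -0.65 (adjusted p = 0.176). PsbC (K02705), PsaA (K02689), PsaB (K02690) and PetB (K02635) had log2 fold changes of -0.22, -0.34, 0.22 and -0.38, all with overlapping libraries. The libraries were made from poly(A) RNA, which plastid transcripts mostly lack, and these genes other than PsbA were under 11 TPM. Within each species the plastid and nuclear genes had the same low library, *T. media* replicate 1 and *T. mairei* replicate 2, in PsbC, PsaA and PsaB. The summed TPM of the nuclear photosystem list was 12531, 24698 and 21455 in *T. media* against 4616, 3635 and 5776 in *T. mairei*.

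By number of calls, but not by summed TPM, the chlorophyll and tocopherol pathways leaned to *T. media* as well. The chlorophyll and porphyrin pathway had 8 of 25 orthologs (32.0%) higher there and 2 lower. The pathway of ubiquinone and tocopherol had 5 of 16 (31.2%) and 1. Over all orthologs the shares were 13.2% higher in *T. media* and 15.8% in *T. mairei*. The chlorophyll pathway summed to 1144, 1362 and 1198 TPM in *T. media* against 1370.5, 1344 and 1498 in *T. mairei*. The sums of the ubiquinone and tocopherol pathway were 767, 757 and 742 TPM against 730.3, 745 and 649. In both pathways the sums overlapped between the species. Chlorophyll synthase (K04040), which adds the tail to chlorophyll, rose from 10.8 to 13.5 TPM in *T. mairei* to 40.9 to 52.0 in *T. media*. Chlorophyllase (K08099), which removes that tail, was also higher, by 2.25 log2 units. Glutamyl-tRNA reductase (K02492), the first committed step toward chlorophyll, went the other way, at 26.4, 38.9 and 34.6 TPM in *T. media* against 184, 249 and 194 in *T. mairei*. Of the latter pathway, the tocopherol enzymes K09833, K12502, K09834 and K05928, named because they were called, were 1.79 to 1.93 log2 units higher in *T. media*, and 10 of its 16 orthologs were not called.

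Some genes of the plant clock also differed. Of 16 circadian rhythm orthologs, 3 (18.8%) were higher in *T. media* and 5 (31.2%) in *T. mairei*, with a median of -0.15. The shares over all orthologs were 13.2% and 15.8%. Over the settings, each of the 2 counts ranged from 2 to 6. LHY (K12133), a clock gene of the morning in Arabidopsis, held 135, 138 and 154 TPM in *T. media* against 46.4, 36.6 and 57.0 in *T. mairei*. GIGANTEA (K12124), an afternoon gene there, held 4.46, 5.13 and 4.91 TPM against 27.9, 24.9 and 24.2. Pseudo-response regulator 5 (K12130), also of the afternoon, was higher in *T. mairei* by limma (log2 fold change -1.67) but not called by edgeR or DESeq2. The hour of harvest is not given in the sources used here, and its part in the photosynthesis values was not tested.

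The orthologs of the gibberellin list, which are also those of the diterpenoid pathway in the files, were all called, although some of their unigenes bear the names of other enzymes. Gibberellins are diterpenoid hormones of stem growth, made from the same C20 precursor as the taxanes. All 6 orthologs were higher in *T. media*, with a median log2 fold change of 2.08 and values from 1.31 to 2.75. Ent-kaurene oxidase (KO, K04122) held 24.0, 22.5 and 24.4 TPM in *T. media* against 4.35, 3.75 and 4.84 in *T. mairei*, at a log2 fold change of 2.22 ± 0.11 (limma adjusted p = 9.51e-06). The next enzyme, KAO (K04123), stood at 11.6, 10.3 and 8.50 TPM against 0.687, 0.768 and 1.10. Gibberellin 3-beta-dioxygenase (GA3ox, K04124), the last step to the active hormone, had 4.44, 6.67 and 7.70 TPM against 0, 0.195 and 0.

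The first and the largest members were mixtures. Ent-copalyl diphosphate synthase (CPS, K04120) held 51.6, 60.3 and 65.1 TPM in *T. media* against 6.65, 49.2 and 8.76 in *T. mairei*. Its call was lost in 7 of the 17 alternatives, 5 of them single libraries left out. The high value of *T. mairei* replicate 2 sat mostly on comp26263_c0, at 38.2 TPM there, which the files name TDC1, the symbol of taxadiene synthase, the first step from the C20 precursor to taxol. The other unigenes of K04120 carry the names ag1 and TPS-LAS of other terpene synthases. The one named ag1, comp23863_c0, led in *T. media*, at 17.3, 27.9 and 43.0 TPM. In GA20ox (K05282), 626, 831 and 873 TPM in *T. media* stood against 257, 340.3 and 233 (log2 fold change 1.49 ± 0.19, limma adjusted p = 4.15e-04). Its leading unigene in *T. media*, comp29190_c1, is named GA2OX7, after an enzyme that breaks gibberellins down. The second, comp30166_c0 (20ox1), held 184 to 259.6 TPM in *T. media* against 2.28 to 4.29 in *T. mairei*.

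Upstream, the MEP pathway had 2 of 8 orthologs (25.0%) called in each direction. Over all orthologs the shares were 13.2% toward *T. media* and 15.8% toward *T. mairei*. Over the settings, the MEP counts were 2 to 3 toward *T. media* and 0 to 2 toward *T. mairei*. The early enzymes DXR (K00099) and CMK (K00919) were higher in *T. media*, by 1.25 and 1.56 log2 units. The last enzyme, HDR (K03527), held 109.6, 96.6 and 87.1 TPM in *T. media* against 246, 323 and 268 in *T. mairei* (log2 fold change -1.50 ± 0.14, limma adjusted p = 1.05e-04). IPPI (K01823), which converts isopentenyl diphosphate into its isomer, was likewise lower in *T. media*, at -1.48. The entry enzyme DXS (K01662) held 85.0, 107 and 92.7 TPM in *T. media* against 32.8, 67.4 and 48.4 in *T. mairei*, which missed the call at a log2 fold change of 0.98 (limma adjusted p = 0.00982). DXS was called higher in *T. media* with TPM as deposited, with upper-quartile scaling, and without *T. mairei* replicate 2 or *T. media* replicate 1. MCT (K00991), MDS (K01770) and HDS (K03526) overlapped, and the median of the pathway was -0.01, or 0.59 with TPM as deposited. With unigenes of at least 100 bp, HDS was called higher in *T. media* at 1.02 (limma adjusted p = 0.00669). The HDR call was lost with TPM as deposited and under edgeR and DESeq2, its leading unigene alone stood at 0.50, and the call of IPPI was lost with TPM as deposited.

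In the mevalonate pathway of the cytosol, which makes the same units for sterols, 4 of 6 orthologs were not called. HMGS (K01641), the second step, held 21.1, 15.1 and 18.4 TPM in *T. media* against 59.3, 70.1 and 53.8 in *T. mairei*. Mevalonate kinase (K00869) was called at 1.06, which was lost under edgeR and DESeq2. HMGR (K00021), the main control point, was not called at -0.46. No unigene carries the K numbers chosen for the prenyl diphosphate synthases, although the study reports genes of GGPPS, the synthase of the C20 precursor. Those synthases are therefore not covered by the list. Its single member measured was geranylgeranyl reductase (GGR, K10960), which saturates the chlorophyll tail and is not such a synthase. GGR held 63.9, 62.5 and 53.5 TPM in *T. media* against 24.6, 22.6 and 21.3, a log2 fold change of 1.35 (limma adjusted p = 4.91e-05).

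**Figure D3:**
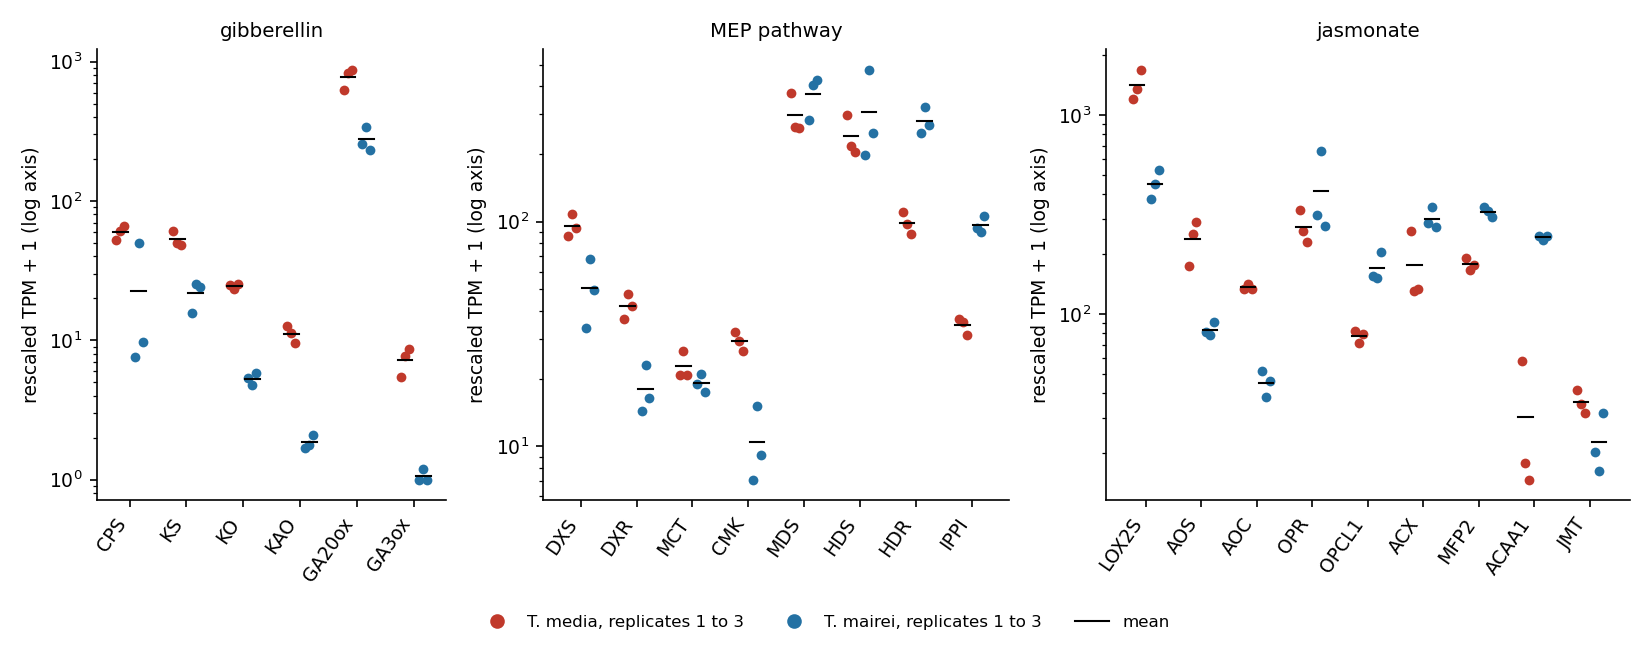
Rescaled TPM + 1 on log axes for 6 gibberellin, 8 MEP and 9 jasmonate orthologs. Dots are single libraries, red for T. media and blue for T. mairei, and black bars are means. Every gibberellin member lies higher in T. media, whereas HDR and IPPI at the end of the MEP pathway lie higher in T. mairei.

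Most taxane enzymes do not have a K number of their own. In the files, 91 unigenes carry a gene ontology term of paclitaxel, taxane or taxadiene metabolism, and 55 of these have no K number. Another 33 fall into K07437, which is annotated as an animal P450 family and is described here although the naming rule did not select it. Its 49 unigenes, many named CYP725A1 or CYP725A2, summed to 1021, 1059 and 972 TPM in *T. media* against 1202, 3179 and 1257 in *T. mairei*. The ortholog was not called (log2 fold change -0.73 ± 0.36, limma adjusted p = 0.108), and without *T. mairei* replicate 2 it stood at -0.27 (adjusted p = 0.0843). Beneath it 10 unigenes were higher in *T. media* against 16 in *T. mairei*. K07437 thus sums genes that moved in both directions, and the ortholog level carries no value for single taxane steps.

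The same library, *T. mairei* replicate 2, was far above its fellows in several other orthologs. Chalcone synthase (CHS, K00660), the entry to flavonoids, held 648 TPM there against 317 and 271. C4H (K00487), an early phenylpropanoid enzyme, held 573 against 219.9 and 153, and mandelonitrile lyase (K08248) 2174 against 706 and 624. The call of mandelonitrile lyase was lost without that library, and that of CHS was not.

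Phenylpropanoids, the precursors of lignin, had 2 of 9 orthologs (22.2%) called in each direction. The wider phenylpropanoid pathway of the files had 13.3% in each. Over all orthologs the shares were 13.2% toward *T. media* and 15.8% toward *T. mairei*. CCoAOMT (K00588), which methylates a lignin precursor, held 2127, 1659 and 2045 TPM in *T. media* against 383, 279.8 and 539.7 in *T. mairei* (log2 fold change 2.32 ± 0.24, limma adjusted p = 1.66e-04). PAL (K10775), the first enzyme of the path, went the other way, at 145, 101 and 133 TPM against 356, 366 and 471 (log2 fold change -1.65 ± 0.17, limma adjusted p = 1.79e-04). C4H was called higher in *T. mairei* at -1.37, but the call ended without *T. mairei* replicate 2 or without *T. media* replicate 2 or 3. The C4H call was also lost with TPM as deposited and with upper-quartile scaling, and its leading unigene alone gave 1.22 toward *T. media*. Cellulose synthase (K10999) was higher in *T. media*, at 1429, 1044 and 1116 TPM against 409, 432 and 469. Its leading unigene in *T. media*, comp30502_c0, is named CSLE1, after a cellulose synthase-like protein.

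Against 13.2% and 15.8% of all orthologs, flavonoid enzymes gave 3 of 7 (42.9%) higher in *T. media*, 0 in *T. mairei*, and a median of 0.91. The wider flavonoid pathway of the files had 4 of 11 and 2. One of these 2 was 6'-deoxychalcone synthase (K08243), at -2.79, which became 1.34 with unigenes of at least 100 bp. FLS (K05278), which makes flavonols, and ANR (K08695), which makes tannin units, each changed by 1.68 log2 units. FLS held 387, 404 and 444 TPM in *T. media* against 108, 160.0 and 120.3. CHS was called at 1.04, a call that was lost without any one of 4 of the libraries. The shikimate pathway, which supplies phenylalanine, had 1 of 6 orthologs called, DAHPS (K01626), at 92.3, 85.8 and 101 TPM in *T. media* against 568, 266 and 202.

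Jasmonate, a wound hormone that raises taxane output in cultured yew cells, had 3 of 9 orthologs higher in *T. media* and 2 in *T. mairei*. These shares, 33.3% and 22.2%, stood against 13.2% and 15.8% over all orthologs. LOX2S (K00454), AOS (K01723) and AOC (K10525), listed for the early steps, were higher in *T. media* by 1.64, 1.49 and 1.60 log2 units. LOX2S held 1199, 1349 and 1685 TPM in *T. media* against 376, 450.2 and 527 in *T. mairei*. The files annotate K00454 only as lipoxygenase, so its 20 unigenes need not all serve jasmonate. Of 19 tested, 10 were higher in *T. media* and 6 in *T. mairei*, and the leading unigene differed between the species. AOC, which forms the hormone's ring, held 133, 140.1 and 133 TPM against 50.8, 37.1 and 44.8. The later, peroxisomal steps had negative log2 fold changes, from -0.51 in OPR (K05894) to -3.29 in ACAA1 (K07513), and 2 of the 5 were called, OPCL1 (K10526) and ACAA1. The value of OPR was positive with TPM as deposited, and the call of OPCL1 was lost under either other scaling and on counts. No jasmonate ortholog was called higher in *T. mairei* with unigenes of at least 100 bp, or by edgeR or DESeq2 on counts.

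ACAA1, a thiolase, held 57.2, 16.9 and 13.7 TPM in *T. media* against 246, 235 and 246 in *T. mairei*. In *T. mairei* 95.4% lay on comp12753_c0, a unigene of 288 bp with an effective length of 89.20 bp. Without unigenes under 100 bp of effective length the log2 fold change of ACAA1 was 0.44 (limma adjusted p = 0.0463), and edgeR on counts gave -0.89 (adjusted p = 0.0160).

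The nitrogen metabolism pathway had 8 of 19 orthologs (42.1%) higher in *T. media* against 3 (15.8%) in *T. mairei*, with a median of 0.80. Over all orthologs the shares were 13.2% and 15.8%. Among the 8, glutamine synthetase (K01915), which fixes ammonium, held 926, 1377 and 1106 TPM against 209, 260.3 and 224. The files place the next 3 orthologs, which are among the 10 most changed toward *T. media*, outside that pathway. The nitrate transporter K02575 (NRT2 in the files) held 159, 118 and 90.6 TPM in *T. media* against 3.58, 2.57 and 5.09, a log2 fold change of 4.70 ± 0.25 (limma adjusted p = 1.27e-05). Arginase (K01476), which frees nitrogen stored as arginine, held 181, 118 and 194 TPM against 8.52, 8.38 and 7.21. Glutamate 5-kinase (K00931), at the start of proline synthesis, held 304, 316 and 381 TPM against 28.4, 25.2 and 19.9.

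Other members of the top 10 had single-enzyme roles. Alpha-dioxygenase (K10529), which oxidizes fatty acids, held 49.9, 50.4 and 62.3 TPM in *T. media* against 0.277, 0.573 and 1.08, and its log2 fold change of 5.09 ± 0.19 was the highest called (limma adjusted p = 5.11e-06). Starch synthase (K00693) held 547, 519.9 and 521 TPM against 18.1, 17.0 and 29.9, mostly on comp24599_c0, named WAXY after the enzyme that makes amylose. Sarcosine oxidase (K00301) and methionine S-methyltransferase (K08247) changed by 4.48 and 4.37. Both stayed at or below 1.02 TPM in every *T. mairei* library.

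Heat shock and chaperone orthologs had 5 of 7 higher in *T. mairei* and 0 in *T. media*, with a median of -1.36, or 3 with TPM as deposited and 2 under edgeR. HSP70 (K03283), which refolds proteins, held 5072, 4926 and 6395 TPM in *T. mairei* and 1283, 1279.7 and 1247 in *T. media* (log2 fold change -2.09 ± 0.13, limma adjusted p = 2.19e-05). ClpB (K03695), which dissolves aggregates, held 269.9, 269 and 497 TPM against 62.0, 64.3 and 76.8. K09486, an HSP70 relative of the endoplasmic reticulum, held 1162, 1201 and 1114 TPM against 126, 46.4 and 61.1. Over all orthologs, 15.8% were higher in *T. mairei* and 13.2% in *T. media*. The oxidative stress list had 3 of 8 (37.5%) higher in *T. mairei* and 1 (12.5%) in *T. media*. That one was thioredoxin (K03671), which reduces disulfides, at 2576, 3081 and 2795 TPM in *T. media* against 1039, 1013 and 1193 (log2 fold change 1.38 ± 0.12, limma adjusted p = 8.67e-05).

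Among regulators, EREBP (K09286), a large class of ethylene-response and cold-response transcription factors, held 6332, 6659.5 and 5623 TPM in *T. mairei* and 702, 675 and 672 in *T. media*. The log2 fold change was -3.18 ± 0.11 (limma adjusted p = 5.11e-06), and of its 70 unigenes tested 46 were higher in *T. mairei* and 6 in *T. media*. Of all 8234 unigenes tested, 1911 were higher in *T. mairei* and 1688 in *T. media*. Calmodulin (K02183), the main calcium sensor, held 5467, 6154 and 7086 TPM in *T. mairei* against 1616, 1426 and 1342. In the opposite direction, the HD-ZIP class (K09338) changed by 1.74 log2 units and the MADS class (K09264) by 1.19. The MADS call was lost under edgeR and DESeq2, and the leading MADS unigene alone gave -0.32.

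Chitinases, which cut the walls of fungi, were among the most abundant called orthologs. Chitinase (K01183) held 9097, 14427 and 8444 TPM in *T. mairei* and 4134, 1721 and 2159.9 in *T. media* (log2 fold change -2.06 ± 0.35, limma adjusted p = 0.00162). Of its 28 unigenes, 22 were higher in *T. mairei* and 2 in *T. media*, against 1911 and 1688 of all 8234 unigenes tested. The separate ortholog K03791, a putative chitinase of 1 unigene, held 506, 918 and 625 TPM against 36.1, 17.3 and 27.8, a log2 fold change of -4.62 ± 0.30 (limma adjusted p = 2.62e-05).

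Enzymes of glutathione, the main thiol against oxidants, had 7 of 17 orthologs (41.2%) higher in *T. mairei* and 3 (17.6%) in *T. media* (median -0.60). These counts were 5 and 6 with TPM as deposited (median 0.01), and 2 and 1 under edgeR and DESeq2. Over all orthologs the shares were 15.8% and 13.2%. Glutathione reductase (GSR, K00383) held 522, 775 and 887 TPM in *T. mairei* against 177, 182 and 161, and glutamate--cysteine ligase (K01919) 222, 205 and 223 against 61.4, 40.2 and 40.2. Glutathione S-transferase (K00799) was called by limma at -1.68 but not by edgeR or DESeq2. Starch and sucrose metabolism had 9 of 31 (29.0%) higher in *T. mairei* and 2 (6.45%) in *T. media* (median -0.05). With TPM as deposited its counts were 8 and 11 (median 0.57). Alpha-glucosidase (K01187) and UDP-glucose 6-dehydrogenase (K00012) changed by -2.37 and -2.33 log2 units. Sucrose synthase (K00695), which splits sucrose, held 267, 278 and 224 TPM in *T. mairei* against 78.7, 39.7 and 43.0.

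Also among the *T. mairei* top 10 were 3 orthologs at 0 in every *T. media* library. The arsenite transporter ACR3 (K03325) held 28.4, 46.0 and 23.4 TPM in *T. mairei*, or 721 and 889 counted reads in replicates 1 and 2. Set against a floor of 3 counts over all *T. media* libraries, it was at least 842-fold higher per counted read on orthologs. The calcium pump K05850 (14.7 to 24.4 TPM) was at least 197-fold higher in the same way. K06910, which the files do not annotate, had 36.0 and 18.0 reads on a unigene of 25.13 bp effective length, at least 28.2-fold higher. In the other direction, 2 orthologs chosen after their values were seen were at 0 in every *T. mairei* library. These were a cyclin-dependent kinase, K07760 (3.93 to 8.04 TPM in *T. media*, at least 222-fold higher), and the P450 class K12153 (3.55 to 27.2 TPM, at least 782-fold higher).

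**Figure D4:**
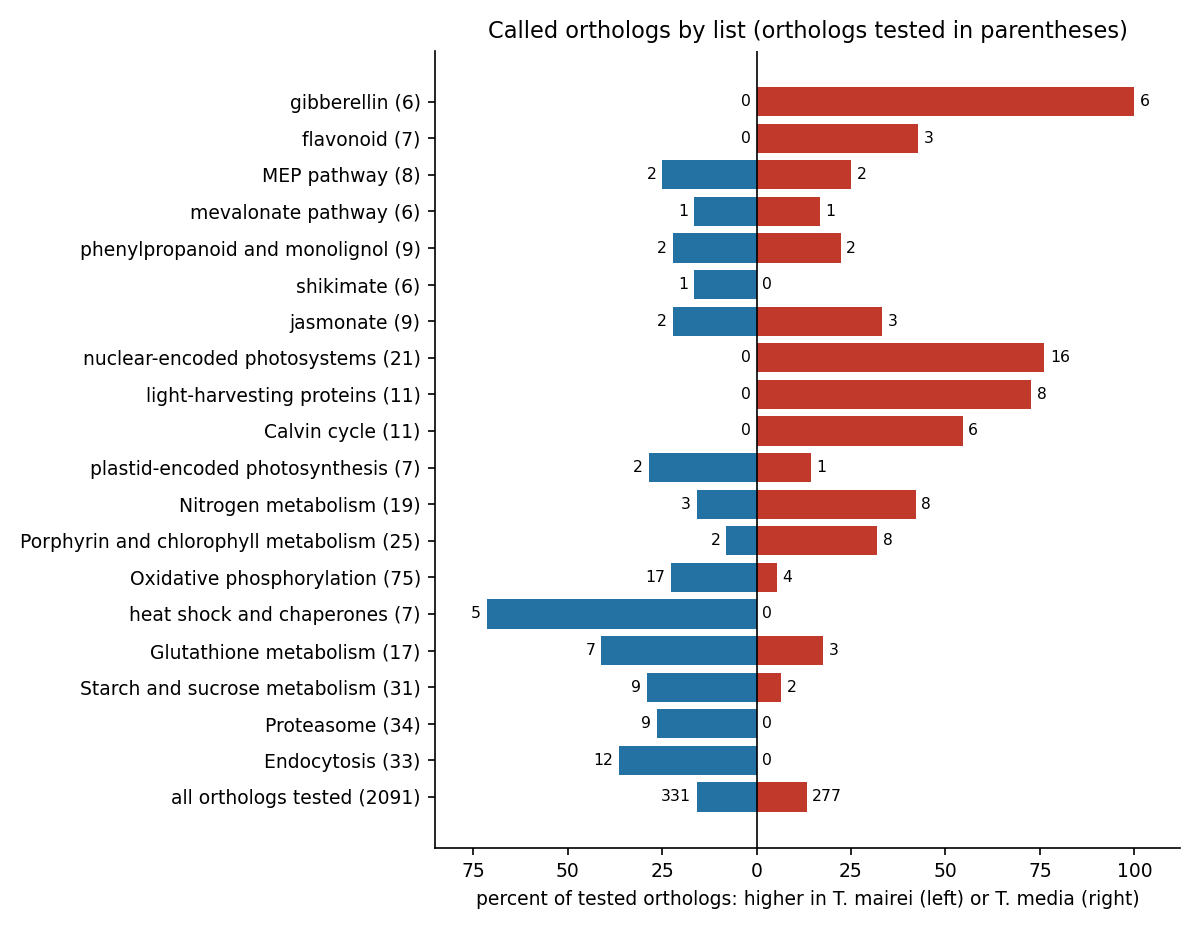
Percent of the tested orthologs of 19 lists that were called, to the right for higher in T. media (red) and to the left for higher in T. mairei (blue), with the number called at each bar and the number tested in parentheses. Of these lists, the gibberellin and nuclear photosynthesis lists reach furthest right and heat shock furthest left, and the bottom bar gives all 2091 orthologs.

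Of all orthologs tested, 15.8% were higher in *T. mairei*. Oxidative phosphorylation had 17 of 75 (22.7%) higher in *T. mairei* and 4 in *T. media*, with a median of -0.47 that became 0.14 with TPM as deposited. Endocytosis had 12 of 33 (36.4%) and 0 (median -0.61), and the proteasome 9 of 34 (26.5%) and 0 (median -0.07, or 0.54 with TPM as deposited). Ubiquitin-mediated proteolysis, at 9 of 52 (17.3%), and autophagy, at 2 of 11 (18.2%), lay near the share of all orthologs. VPS28 (K12184), which sorts membrane proteins for degradation, held 122, 139 and 160.3 TPM in *T. mairei* and 15.4, 14.3 and 14.3 in *T. media*. It remained called in every alternative.

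Without unigenes under 100 bp of effective length, 3 proteasome orthologs were called higher in *T. mairei*, in place of 9. The subunit alpha 3 (K02728) held 534, 539 and 377 TPM in *T. mairei* and 95.2, 105 and 108 in *T. media*. On comp8250_c0, a unigene of 209 bp with an effective length of 27.33 bp, *T. mairei* held 411, 421 and 282 TPM and *T. media* 0 in each library. On the long unigene comp22807_c0 (1244 bp) the values were 80.3, 82.4 and 81.6 TPM in *T. media* against 99.7, 89.2 and 89.6 in *T. mairei*. Beta 5 (K02737) and the NADH-dependent glutamate synthase (K00264) had the same makeup. The 256 bp unigene of K00264, comp29406_c0, had 76.2 to 97.9 TPM in *T. mairei* and 0 in *T. media*, and its 7310 bp unigene 9.69 to 12.4 against 12.1 to 14.5. On counts, edgeR and DESeq2 each called 0 of the 34 proteasome orthologs higher in *T. mairei*, and 8 were higher there at an unadjusted p below 0.05.

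A read on a very short effective length adds many TPM, and such unigenes weighed more often on the calls toward *T. mairei*. Of the 331 orthologs higher in *T. mairei*, 90 (27.2%) had over 50% of their *T. mairei* TPM on unigenes with under 100 bp of effective length. Of the 277 higher in *T. media*, 18 (6.50%) had over 50% of their *T. media* TPM on such unigenes. Among the 1483 orthologs that were not called, the shares were 6.0% in *T. mairei* and 3.78% in *T. media*. Without these unigenes, 268 orthologs were higher in *T. mairei* and 249 in *T. media*.

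Single unigenes and their sums gave different shares of calls. Of 8234 unigenes tested, 3599 (43.7%) were called, 1688 toward *T. media* and 1911 toward *T. mairei*, with a median absolute log2 fold change of 0.91. Among the 1329 orthologs with more than 1 unigene, the leading unigene differed between the species in 693 (52.1%). Of these 1329, 447 (33.6%) were called, against 161 (21.1%) of the 762 orthologs with 1 unigene. In 352 orthologs there were unigenes called in both directions, and 257 of these orthologs were not called. At least 1 unigene was called in 1127 orthologs, of which 530 were not called themselves.

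Catalase (K03781), which breaks down hydrogen peroxide, had unigenes that moved in both directions. Its unigene comp25985_c0 held 769, 781 and 976 TPM in *T. media* against 0.289, 0.171 and 0.257 in *T. mairei*. Another, comp19729_c0, held 387, 416 and 547 TPM in *T. media* against 949, 773 and 832 in *T. mairei*. Their ortholog stood at 1587, 1869.8 and 2089 TPM against 1332, 1127 and 1141, a log2 fold change of 0.62 (limma adjusted p = 0.00632) that is short of a call, although it was called with TPM as deposited and with upper-quartile scaling. The ubiquitin-conjugating enzyme K06689 went the same way from the other side. Its unigene comp20776_c0 held under 0.4 TPM in *T. media* against 1473, 1098 and 1317 in *T. mairei* (log2 fold change -10.03), and comp20788_c0 held 294 to 350.4 TPM in *T. media* against 5.22 to 7.28 in *T. mairei*. The sum, 2262, 1824 and 1814 TPM against 2749, 2419.5 and 2820.2, differed by -0.44.

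Phospholipase D (K01115), which cuts membrane lipids, held 607, 645 and 814 TPM against 834, 766 and 878, although comp14239_c0 alone stood at -7.70. Some of its unigenes bear other names, such as PERK9, CML50 and sap-49. The ortholog K09753, annotated as cinnamoyl-CoA reductase (CCR), a lignin enzyme, differed by -0.07. Its unigene comp26102_c1, named CCR2, held 437 to 541 TPM in *T. media* against 14.2 to 21.5 in *T. mairei*. Another, comp16630_c0, held 0 and 196 to 332 but is named A. Further unigenes of K09753 are named TKPR1, TKPR2 or DFRA, so the sum is not of CCR copies alone. Some orthologs stay broad at this level, such as K00924, a kinase class of 613 unigenes, with a log2 fold change of -0.73. PsbR shows that a large ortholog change can also sit on one copy. Its unigene comp19016_c0 held 2253, 4576 and 3545 TPM in *T. media* against 6.92, 4.34 and 8.70 in *T. mairei*, while comp39752_c0 held 195, 572 and 477 against 239, 152 and 369.

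**Figure D5:**
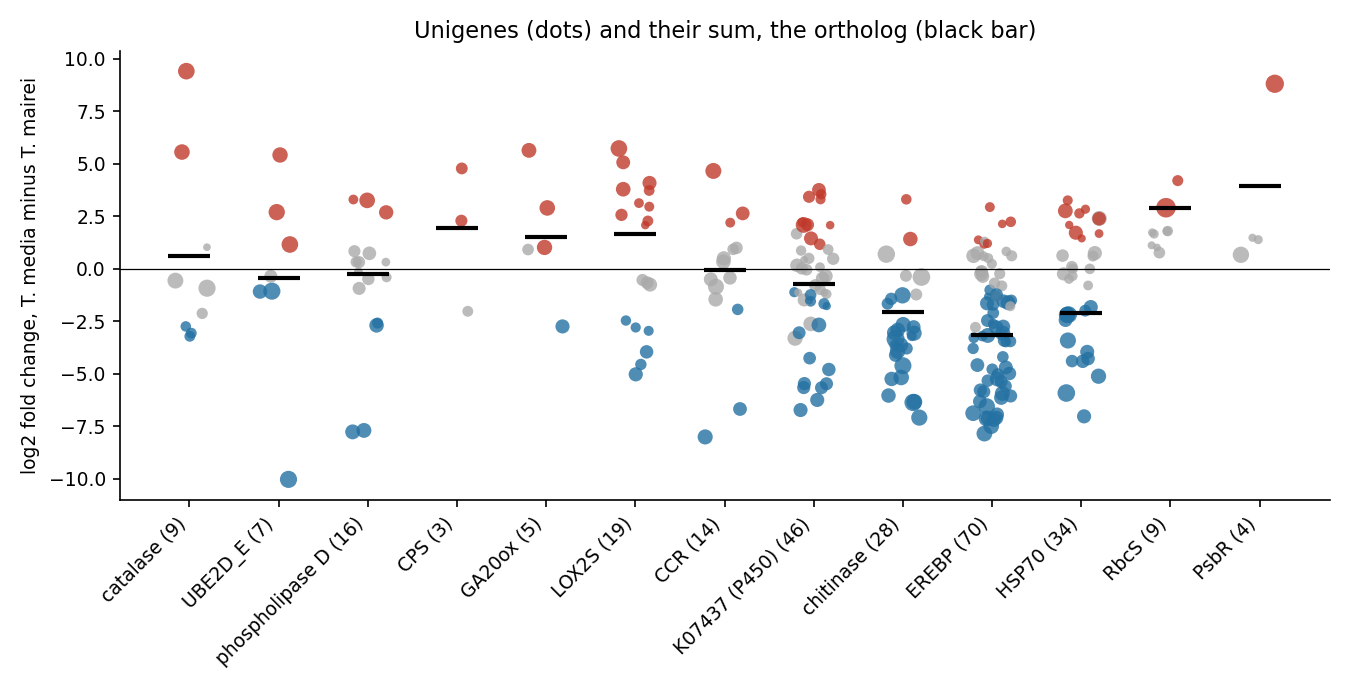
Log2 fold change (T. media minus T. mairei) of the unigenes of 13 orthologs as dots, sized by mean TPM and colored by call (red higher in T. media, blue higher in T. mairei, gray not called), with the fold change of the summed ortholog as a black bar. The number of unigenes plotted is in parentheses. In catalase and UBE2D_E (K06689) the unigenes reach 9.40 and -10.03, and the bars lie at 0.62 and -0.44.

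Of 8 orthologs often taken as constant, 1 was called. This was an actin, K10355, at 98.9, 59.0 and 49.1 TPM in *T. media* against 663, 591 and 738 in *T. mairei*. The other actin ortholog, K05692, chosen after its values were seen, held 685, 724 and 744 TPM against 707, 655 and 797. Mitochondria-encoded orthologs were low, with 3 of 7 (42.9%) higher in *T. mairei*, or 1 to 5 over the alternatives. In *T. media* 1 (14.3%) was higher, NAD1 (K03878), at 1.04 (limma adjusted p = 1.88e-04). Over all orthologs the shares were 15.8% and 13.2%. COX1 (K02256) held 33.2, 47.7 and 50.9 TPM in *T. mairei* and 5.37, 12.5 and 14.2 in *T. media*. One of its unigenes, comp329285_c0, was at 0 in *T. media* and is named MT-CO1 in the style of animal genes. Its part in the COX1 difference was not tested.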

How the data were processed

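Twigs of both species were sequenced as poly(A) libraries on an Illumina instrument. The authors co-assembled the reads with Trinity, annotated the unigenes against KEGG, and deposited TPM for every library and expected counts for 8 of 9. The read counter is not given in the sources used here. TPM were summed per K number and rescaled by the median ratio. Limma 3.58.1 (R 4.3.3, trend) was run on log2(TPM + 1) of orthologs with a mean of at least 1 TPM, with Benjamini-Hochberg adjustment over all 2091. Fold changes on this scale understate those of low orthologs. Unigenes with a K number were fitted alike. The deposited expected counts of 5 libraries were summed, rounded and tested in edgeR 4.0.16 and DESeq2 1.42.0 as a check, without a correction for length. The steps were tested on simulated data.

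Named orthologs were the 10 most changed in each direction with separate libraries and at least 10 TPM, the 5 most abundant called, the tested members of the biosynthesis, jasmonate and plastid lists, up to 4 called of each other list or KEGG pathway, and the orthologs of 4 strongly changed unigenes. K07437 and K05692 were added after their values were seen. Members and lists were chosen with earlier results of these data known. The study's methods name independent trees and biological replicates of each species, but not which trees went into which library. The labels do not say that the libraries came from separate trees, so p-values measure the spread between these libraries. Genes with near-identical copies may share reads.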

Additional observations from a re-analysis of the deposited data

How the results depend on the processing

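Of the 608 calls, 240 were kept with their direction in each of 17 alternatives, 159 higher in *T. media* and 81 in *T. mairei*. The scaling moved the counts most: 605 and 151 with TPM as deposited, 512 and 185 with the upper quartile. EdgeR on counts gave 269 and 220, DESeq2 271 and 222, and the unigenes of at least 100 bp 249 and 268. The leading unigene alone gave 309 and 397. Leaving out single libraries gave 251 to 284 and 306 to 342.

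The replicate block gave 278 and 332 and kept 607 calls. Deviations of same-numbered libraries correlated at -0.084, -0.210 and 0.083, and those of differently numbered libraries at -0.184 to 0.247. With 3 libraries per species, these values cannot decide whether the numbers pair the samples. The labels do not say that they do. Every unigene lists 1 K number, so the setting with all K numbers of a unigene was not run.

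Counts of list members were compared after the data were seen. Higher in *T. mairei* were 3 heat shock orthologs with TPM as deposited or the upper quartile and 2 under edgeR and DESeq2. For oxidative phosphorylation they were 6, 8, 10 (100 bp), 7 and 7, for endocytosis 5 with TPM as deposited, and for the proteasome 3 (100 bp), 5 (leading unigene), 0 and 0. The Calvin cycle had 10 higher in *T. media* with the leading unigene. Single libraries left out gave 5 to 9 antenna orthologs.

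These log2 fold changes reversed. With unigenes of at least 100 bp they were 1.02 for K03526, 0.44 for K07513, 0.16 for K11251, 1.34 for K08243, 0.41 for K00419, 0.15 for K01501, 0.63 for K02371, 0.22 for K00264 and 0.35 for K02737. With the leading unigene they were 0.50 for K03527, 1.22 for K00487, 2.07 for K09754, 4.48 for K09753, -0.32 for K09264, 0.52 for K01897, -1.11 for K03781, 3.07 for K01115 and 1.91 for K07437. On counts, edgeR and DESeq2 both gave 0.18 for K01501, 0.36 for K02371 and 0.37 for K01897. Dropping unigenes changes which are summed, and the cause was otherwise not tested.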
